A study of Saccharomyces cerevisiae with 15 samples.

Results

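The mitochondrial protein import machinery was followed through 38 nuclear genes of budding yeast, chosen by gene identity and not by their values, out of 7127 genes in the count table. They encode 4 receptors and 4 channel or small subunits of TOM (the translocase of the outer membrane), 5 subunits of the TIM23 inner membrane translocase, 4 subunits of its import motor PAM, 3 subunits of the TIM22 carrier translocase, 5 small TIM chaperones, 2 components of the MIA disulfide relay, 4 subunits of the SAM outer membrane complex, the insertase OXA1 and 6 peptidases that trim imported proteins. All 38 were in the table and all 38 passed the filter on low counts in every comparison.

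Poly(A) RNA was sequenced from W303 cells, a laboratory strain, grown in rich medium with 2% raffinose and induced with 1% galactose for 4 h. Each group had 3 biological replicates. Psd1 pdr3Δ cells (a galactose-driven PSD1 gene and a HIS3 marker in place of PDR3) were compared with Psd1 cells (the same construct, PDR3 present), MTSMge1 pdr3Δ cells with MTSMge1 cells (the first 44 residues of Mge1, its mitochondrial targeting sequence, fused to mCherry), and the PDR3 strains with MTSMss116 cells (the first 53 residues of Mss116 fused to mCherry). The sample labels also give every culture an empty 2u plasmid. Psd1 is a full-length inner membrane enzyme that makes phosphatidylethanolamine, whereas the other 2 constructs are presequences on a fluorescent protein, so the cargo and the presequence cannot be told apart in comparisons of Psd1 with the fusions. All strains were induced, and no culture without a construct was analysed here.

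Nearly all mitochondrial proteins are made in the cytosol and threaded through TOM, after which TIM23 and PAM take presequence proteins into the matrix, TIM22 inserts carriers, MIA folds cysteine-rich proteins between the membranes and SAM inserts outer membrane barrels. Psd1 overexpression is known to burden this route, and the transcription factor Pdr3 then induces the mitochondrial compromised protein import response (mitoCPR). The question addressed here was whether the transcripts of the machinery itself differed between constructs or with PDR3.

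Total counts ranged between 9128344 and 15953662 per library (median 12181171), and the 38 genes together took 0.639 to 0.740% of a library. The lowest count of any of them in any library was 250. The deleted and overexpressed genes matched their labels. PDR3 had 0 counts in every Psd1 pdr3Δ library, against 2190 to 3524 in Psd1 libraries, and 0 to 1 in MTSMge1 pdr3Δ libraries, against 2679 to 4469 in MTSMge1 libraries. PSD1, MGE1 and MSS116 were each highest in the libraries of their own construct.

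The changes were small, and 2 of the 38 genes were called in Psd1 over MTSMss116 cells, where 6.16% of all genes were. In Psd1 cells TIM8, a small TIM chaperone, was 1.54-fold and MIA40, the receptor and oxidase of the disulfide relay, was also 1.54-fold the level in MTSMss116 cells. These calls were kept in 2 and 1 of the 6 fits that left out a library, which called 50 to 1503 genes in all, against 380. The promoters of TIM8, MIA40, TIM13 and MGR2 are shown because these 4 genes were higher in all 6 libraries with the Psd1 construct than in all 9 others. Of all genes tested, 4.91% met this rule. The 4 windows are as follows. Each runs from 250 bases before to 50 bases within the coding sequence on the gene's own strand (RefSeq, R64), at chrX:676721-677020 for TIM8, chrXI:75571-75870 for MIA40 and chrVII:858037-858336 for TIM13, all on the plus strand, and chrXVI:364678-364977 for MGR2, on the minus strand. Capitals mark CCAAT on either strand or CCCCT, the only searched motifs found in them, and the TIM8 window holds none.
TIM8: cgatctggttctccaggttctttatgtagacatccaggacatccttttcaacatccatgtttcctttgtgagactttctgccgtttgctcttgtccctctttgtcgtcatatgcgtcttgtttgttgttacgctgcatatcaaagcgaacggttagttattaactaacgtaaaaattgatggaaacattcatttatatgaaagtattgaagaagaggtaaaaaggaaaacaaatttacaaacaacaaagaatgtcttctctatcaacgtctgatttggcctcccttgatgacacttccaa
MIA40: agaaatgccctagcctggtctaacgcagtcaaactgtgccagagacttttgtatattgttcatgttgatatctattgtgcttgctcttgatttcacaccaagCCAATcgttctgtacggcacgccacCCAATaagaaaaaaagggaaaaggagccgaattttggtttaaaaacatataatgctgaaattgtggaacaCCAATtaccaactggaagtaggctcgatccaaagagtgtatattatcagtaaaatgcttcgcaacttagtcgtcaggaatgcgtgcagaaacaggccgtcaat
TIM13: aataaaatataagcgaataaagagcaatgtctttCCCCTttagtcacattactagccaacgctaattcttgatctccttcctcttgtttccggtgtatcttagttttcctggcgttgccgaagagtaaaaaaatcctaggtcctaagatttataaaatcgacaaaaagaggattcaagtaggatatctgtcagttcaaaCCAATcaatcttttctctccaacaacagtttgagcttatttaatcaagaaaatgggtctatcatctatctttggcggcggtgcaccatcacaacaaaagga
MGR2: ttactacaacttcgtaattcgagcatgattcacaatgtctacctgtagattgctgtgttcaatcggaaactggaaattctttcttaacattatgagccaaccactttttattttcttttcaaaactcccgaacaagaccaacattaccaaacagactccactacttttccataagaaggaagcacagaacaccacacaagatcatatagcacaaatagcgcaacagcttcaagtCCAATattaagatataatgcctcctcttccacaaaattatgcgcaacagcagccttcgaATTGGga

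Short motifs were searched on both strands of 6020 promoters of this length. The Pdr1/Pdr3 element TCCGCGGA was in 0 of the 38 import promoters, against 0.216% of all promoters, and its form with a free base, TCCGNGGA, was in 1, that of TIM22, against 1.21%. The proteasome-associated element GGTGGCAAA, bound by Rpn4, was in 0 of 38, against 1.2%. The stress response element CCCCT was in 4 of 38 (10.5%, against 21.6% of all), the CCAAT box in 19 (50%, against 43.3%) and the heat shock half-sites TTCNNGAA in 4 (10.5%, against 12.8%). TCCGCGGA is also a case of TCCGNGGA. These matches describe letters only.

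The small TIM chaperones carry hydrophobic proteins across the intermembrane space. Tim9 and Tim10 form one hexamer, Tim8 and Tim13 another, and Tim12 sits on TIM22. TIM8 (YJR135W-A, chrX:676971-677234) had 86.5, 87.7 and 85.8 CPM (counts scaled to a common library total) in Psd1 pdr3Δ cells and 85.4, 86.9 and 91.5 CPM in Psd1 cells. The gene had 66.1, 65.0 and 61.5 CPM in MTSMge1 pdr3Δ cells, 63.7, 61.9 and 65.6 CPM in MTSMge1 cells and 55.2, 53.8 and 63.4 CPM in MTSMss116 cells. Every library with the Psd1 construct was therefore above every other library. The log2 fold change of Psd1 over MTSMss116 was 0.63 (SE 0.10, 95% interval 0.40 to 0.85; edgeR quasi-likelihood adjusted p = 0.0139), that of Psd1 over MTSMge1 was 0.46 (adjusted p = 0.0135 by edgeR) and that of Psd1 pdr3Δ over MTSMge1 pdr3Δ was 0.43 (adjusted p = 0.0274 by edgeR).

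TIM13 (YGR181W, chrVII:858287-858604), the partner of TIM8, had 69.8, 58.1 and 63.8 CPM in Psd1 pdr3Δ cells, 57.8, 68.9 and 69.9 CPM in Psd1 cells, and 44.7 to 54.8 CPM in the 9 libraries of the MTSMge1 pdr3Δ, MTSMge1 and MTSMss116 groups. The groups with and without the Psd1 construct did not overlap. Its log2 fold change of Psd1 over MTSMss116, 0.46 (SE 0.11), did not pass (adjusted p = 0.0532 by edgeR). TIM9 (YEL020W-A) had 76.0, 83.3 and 99.4 CPM in Psd1 cells, against 66.8, 65.1 and 64.4 CPM in MTSMss116 cells, a difference of 0.41 on the log2 scale (adjusted p = 0.0786 by edgeR). The Psd1 libraries were above the MTSMss116 libraries but spread more widely. TIM10, the most abundant of the 38 per kilobase in every group, and TIM12 had log2 fold changes of 0.13 (95% interval -0.16 to 0.41) and 0.12 (-0.15 to 0.38), which did not pass. All 5 chaperones thus had positive values in this comparison, and 1 passed.

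MIA40 traps cysteine-rich proteins and Erv1, a sulfhydryl oxidase, reoxidizes it. MIA40 (YKL195W, chrXI:75821-77032) had 602, 575 and 632 CPM in Psd1 pdr3Δ cells, 644, 606 and 676 CPM in Psd1 cells, 538, 528 and 446 CPM in MTSMge1 pdr3Δ cells, 514, 509 and 464 CPM in MTSMge1 cells and 416, 447 and 402 CPM in MTSMss116 cells. The 6 Psd1-construct libraries lay above the other 9, and the MTSMge1 libraries lay above the MTSMss116 libraries. The log2 fold change was 0.62 for Psd1 over MTSMss116 (SE 0.10, 95% interval 0.39 to 0.85; adjusted p = 0.0146 by edgeR), 0.37 for Psd1 over MTSMge1 (adjusted p = 0.0642 by edgeR) and 0.25 for MTSMge1 over MTSMss116 (adjusted p = 0.665 by edgeR). ERV1 (YGR029W) had 86.8, 91.0 and 80.7 CPM in Psd1 cells, against 68.5, 77.0 and 70.0 CPM in MTSMss116 cells. These groups did not overlap, and the log2 fold change of 0.28 did not pass (adjusted p = 0.125 by edgeR).

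**Figure D1:**
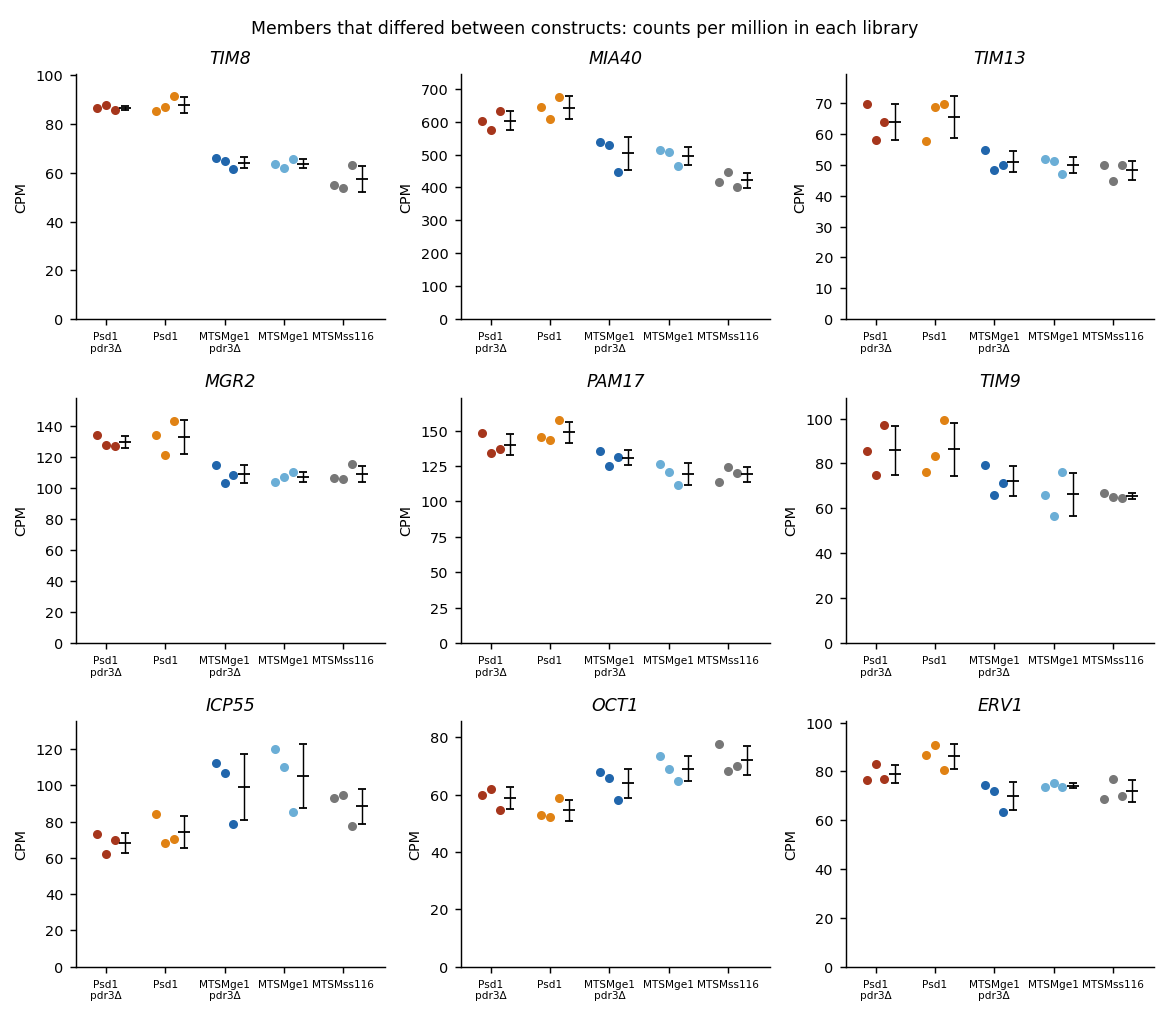
CPM of 9 import machinery genes (y axes, each from 0) in the 15 libraries, by group on the x axes; points are libraries and the black bar beside them is the mean ± SD of 3. TIM8, MIA40, TIM13 and MGR2 have all 6 Psd1-construct libraries above the other 9, as 4.91% of all genes tested do. ICP55 and OCT1 have lower group means with the Psd1 construct.

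Of the 38 genes, 2 were called in Psd1 over MTSMss116 cells (TIM8 and MIA40, both higher), against 6.16% of the 6168 genes tested (4.25% higher), so the share of import genes called was near that of all genes. None was 2-fold changed (1.59% of all genes were called and at least 2-fold). The median log2 fold change of the 38 was 0.06, against 0.01 over all genes tested. The libraries of the 2 groups did not overlap for 9 import genes that were higher and 4 that were lower in Psd1 cells, against 15.9% and 13.8% of all genes. DESeq2 called 6 of the 38, adding TIM9, TIM13, PAM17 and OCT1, and 15.1% of all genes it tested. The TIM8 call was lost without any 1 of the 3 Psd1 libraries or without MTSMss116 replicate 1 (adjusted p up to 0.0759 by edgeR). The MIA40 call was lost without any 1 library other than MTSMss116 replicate 2 (adjusted p up to 0.0913 by edgeR). The log2 fold changes stayed between 0.58 and 0.70 for TIM8 and between 0.56 and 0.66 for MIA40. Calls over all genes fell as well, from 380 to 94, 50 and 112 without Psd1 replicates 1, 2 and 3. They were 87, 1503 and 202 without MTSMss116 replicates 1, 2 and 3. Of all libraries, MTSMss116 replicate 2 differed most from the other replicates of its group.

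No import gene was called in MTSMge1 over MTSMss116 cells by edgeR, against 0.647% of the 6184 genes tested. DESeq2 called 0 of the 38 and 123 of all genes. MIA40 was the 1 import gene with an unadjusted p under 0.05 by edgeR. The 95% intervals of the 38 log2 fold changes lay between -0.67 and 0.62, bounds of 0.63-fold and 1.53-fold. These are the outermost limits over the 38 and not a limit of detection. The 2 comparisons share the MTSMss116 libraries. MTSMge1 cells thus had no called change in the import genes at this depth and replication, and their TIM8 level, 63.7 ± 1.86 CPM, against 57.5 ± 5.20 CPM in MTSMss116 cells (SD, n = 3 each), overlapped that of the MTSMss116 libraries.

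Psd1 was also set against MTSMge1 directly, in cells of each genotype. TIM8 was the 1 import gene called in Psd1 over MTSMge1 cells (background 4.89%) and in Psd1 pdr3Δ over MTSMge1 pdr3Δ cells (background 3.93%). Without Psd1 replicate 1 or 2, or MTSMge1 replicate 1 or 2, the first call was lost (adjusted p up to 0.0687 by edgeR). The fits that lost it called 41 to 107 genes in all, against 301 with every library. Without any 1 Psd1 pdr3Δ library or MTSMge1 pdr3Δ replicate 1 the second was lost (adjusted p up to 0.149 by edgeR). The log2 fold changes of TIM8 without single libraries and under the other settings stayed between 0.43 and 0.48 for the first and between 0.39 and 0.45 for the second.

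A contrast over all 12 libraries of these 4 groups was averaged over PDR3 genotypes and added after the values were seen. It called 10 of the 38 genes in Psd1 over MTSMge1 (26.3%, against 21.8% of the 6238 genes tested). Of these, 8 were higher and 2 lower, against 10.7% and 11% of all genes tested. The contrast uses the same libraries and is not independent of the comparisons above. The genes higher were TIM8 (log2 fold change 0.44, 95% interval 0.35 to 0.53), TIM13 (0.35), TIM9 (0.31), MIA40 (0.31), MGR2 (0.27), TIM10 (0.22), PAM17 (0.20) and ERV1 (0.19), and those lower were ICP55 (-0.53, 95% interval -0.76 to -0.29) and OCT1 (-0.24). By machine, 4 of the 5 small TIMs and both MIA genes were among the 10, which was not tested. TIM8, TIM13, MIA40, MGR2, PAM17 and ICP55 were called in all 12 fits that left out 1 library. OCT1 was called in 11, ERV1 in 7, TIM9 in 4, TIM10 in 3 and TOM6, SAM35 and MAS2 in 1 each. With a replicate block 16 were called, TOM40, TOM6 and SAM35 included, against 35.4% of all genes.

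**Figure D2:**
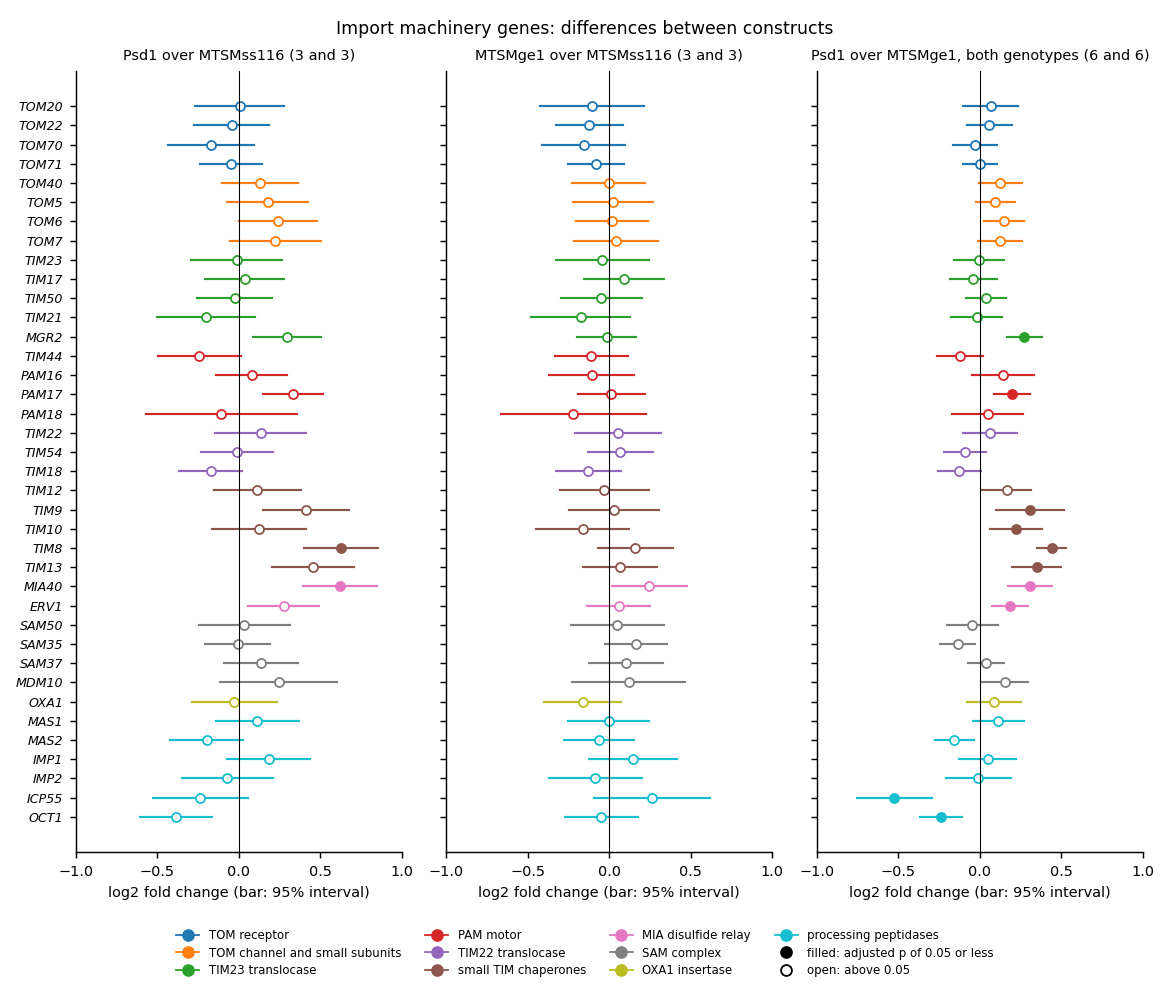
Log2 fold changes of the 38 import genes (x axes; bars are 95% intervals; filled points have an edgeR adjusted p of 0.05 or less), coloured by machine, for Psd1 over MTSMss116, MTSMge1 over MTSMss116 and Psd1 over MTSMge1 averaged over PDR3 genotypes. Filled points are TIM8 and MIA40 on the left, none in the middle and 10 genes on the right.

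The TIM23 translocase takes presequence proteins through the inner membrane, with Tim23 and Tim17 in its core, Tim50 as receptor, Tim21 as a link to TOM and Mgr2 as a lateral gatekeeper. MGR2 (YPL098C, chrXVI:364386-364727) had 134, 128 and 127 CPM in Psd1 pdr3Δ cells, 134, 122 and 143 CPM in Psd1 cells, 115, 103 and 108 CPM in MTSMge1 pdr3Δ cells, 104, 107 and 110.5 CPM in MTSMge1 cells and 107, 106 and 115 CPM in MTSMss116 cells. It was the 1 TIM23 subunit with all Psd1-construct libraries above the other 9, although its log2 fold change of 0.30 over MTSMss116 did not pass (adjusted p = 0.0973 by edgeR). TIM23 (YNR017W) had 411, 411 and 447 CPM in Psd1 cells, against 444, 373 and 476 CPM in MTSMss116 cells, and TIM50 had 285, 298 and 305 CPM, against 300.1, 280 and 332 CPM. For both the groups overlapped, with log2 fold changes of -0.01 (95% interval -0.29 to 0.27) and -0.02 (-0.25 to 0.21).

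The PAM motor pulls proteins into the matrix: Tim44 anchors the Hsp70 Ssc1 at the channel, Pam18 is its J-protein, Pam16 regulates Pam18 and Pam17 is a further subunit. PAM17 (YKR065C, chrXI:565299-565892) had 148, 134 and 137 CPM in Psd1 pdr3Δ cells, 145, 144 and 158 CPM in Psd1 cells, 136, 125 and 132 CPM in MTSMge1 pdr3Δ cells, 126, 121 and 111 CPM in MTSMge1 cells and 114, 124 and 120 CPM in MTSMss116 cells. The Psd1 libraries were above the MTSMss116 libraries, with a log2 fold change of 0.34 that did not pass (adjusted p = 0.0518 by edgeR). PAM18 (YLR008C) spread widely within groups, with 153, 156 and 198 CPM in Psd1 cells, against 192, 135 and 223 CPM in MTSMss116 cells.

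SSC1 itself, the matrix Hsp70 that drives the motor, is not one of the 38. It had 4015, 3860 and 4009 CPM in Psd1 pdr3Δ cells, 4157, 3934 and 4056 CPM in Psd1 cells, 2775, 2647 and 2622 CPM in MTSMge1 pdr3Δ cells, 2688, 2787 and 2596 CPM in MTSMge1 cells and 2670, 2614 and 2720 CPM in MTSMss116 cells. It was called higher in Psd1 over MTSMss116 cells (log2 fold change 0.62, adjusted p = 0.0142 by edgeR), in Psd1 over MTSMge1 cells (0.58) and in Psd1 pdr3Δ over MTSMge1 pdr3Δ cells (0.56), while the MTSMge1 and MTSMss116 libraries overlapped. Each of these calls, like those of TIM8, was lost without some single libraries (adjusted p up to 0.0954, 0.0767 and 0.156 by edgeR).

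The receptors Tom20, Tom22 and Tom70 and the Tom70 paralog Tom71 bind precursors at the surface, and Tom40 is the channel, with Tom5, Tom6 and Tom7 as small subunits. TOM40 (YMR203W) had 509, 514 and 575 CPM in Psd1 cells, against 504, 466 and 506 CPM in MTSMss116 cells, groups that did not overlap but lay close together, and its log2 fold change of 0.13 (95% interval -0.10 to 0.36) did not pass. TOM70 had 475, 469 and 514 CPM in Psd1 cells, against 554, 495 and 607 CPM in MTSMss116 cells, and TOM71 had 109, 121 and 125 CPM, against 124, 127 and 120 CPM. Both genes overlapped between the groups. The 4 channel and small subunit genes had positive log2 fold changes between 0.13 and 0.24 and the receptors ranged between -0.17 and 0.01, and none passed.

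TIM22 inserts carriers, Sam50 is the core of SAM and Oxa1 exports proteins from the matrix into the inner membrane. TIM22 had 89.5, 94.1 and 109 CPM in Psd1 cells, against 92.9, 78.5 and 98.1 CPM in MTSMss116 cells. SAM50 had 88.5, 76.0 and 81.0 CPM, against 90.5, 82.0 and 69.7 CPM, and OXA1 had 238, 257 and 299 CPM, against 279, 253 and 286 CPM. The groups overlapped for all 3 and their log2 fold changes were 0.13, 0.04 and -0.03, none past the threshold.

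Presequences are cut by the matrix processing peptidase, made of Mas1 and Mas2, and some products are then trimmed by Icp55 or Oct1, while Imp1 and Imp2 act on the outer face of the inner membrane. MAS1 had 250.3, 230 and 273 CPM in Psd1 cells, against 234, 213 and 256 CPM in MTSMss116 cells, and MAS2 had 248, 227 and 255 CPM, against 284, 261 and 300.4 CPM. MAS1 overlapped between the groups, MAS2 was lower in each Psd1 library, and neither passed (log2 fold changes 0.11 and -0.20). ICP55 (YER078C, chrV:316807-318342), which trims the end left by the first cut, had 73.1, 62.3 and 69.9 CPM in Psd1 pdr3Δ cells, 84.3, 68.4 and 70.3 CPM in Psd1 cells, 112, 107 and 78.6 CPM in MTSMge1 pdr3Δ cells, 120, 110 and 85.5 CPM in MTSMge1 cells and 93.2, 94.9 and 77.4 CPM in MTSMss116 cells. Replicate 3 was the lowest library of ICP55 in the 3 groups without the Psd1 construct, and only there did values reach above 84.3 CPM. OCT1 (YKL134C, chrXI:189124-191442) had 59.9, 61.9 and 54.5 CPM in Psd1 pdr3Δ cells, 52.8, 52.0 and 58.7 CPM in Psd1 cells, 67.9, 65.8 and 58.2 CPM in MTSMge1 pdr3Δ cells, 73.5, 68.8 and 64.7 CPM in MTSMge1 cells and 77.8, 68.1 and 70.1 CPM in MTSMss116 cells. The Psd1 libraries were below the MTSMss116 libraries for OCT1, by -0.39 on the log2 scale, which did not pass (adjusted p = 0.0605 by edgeR).

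**Figure D3:**
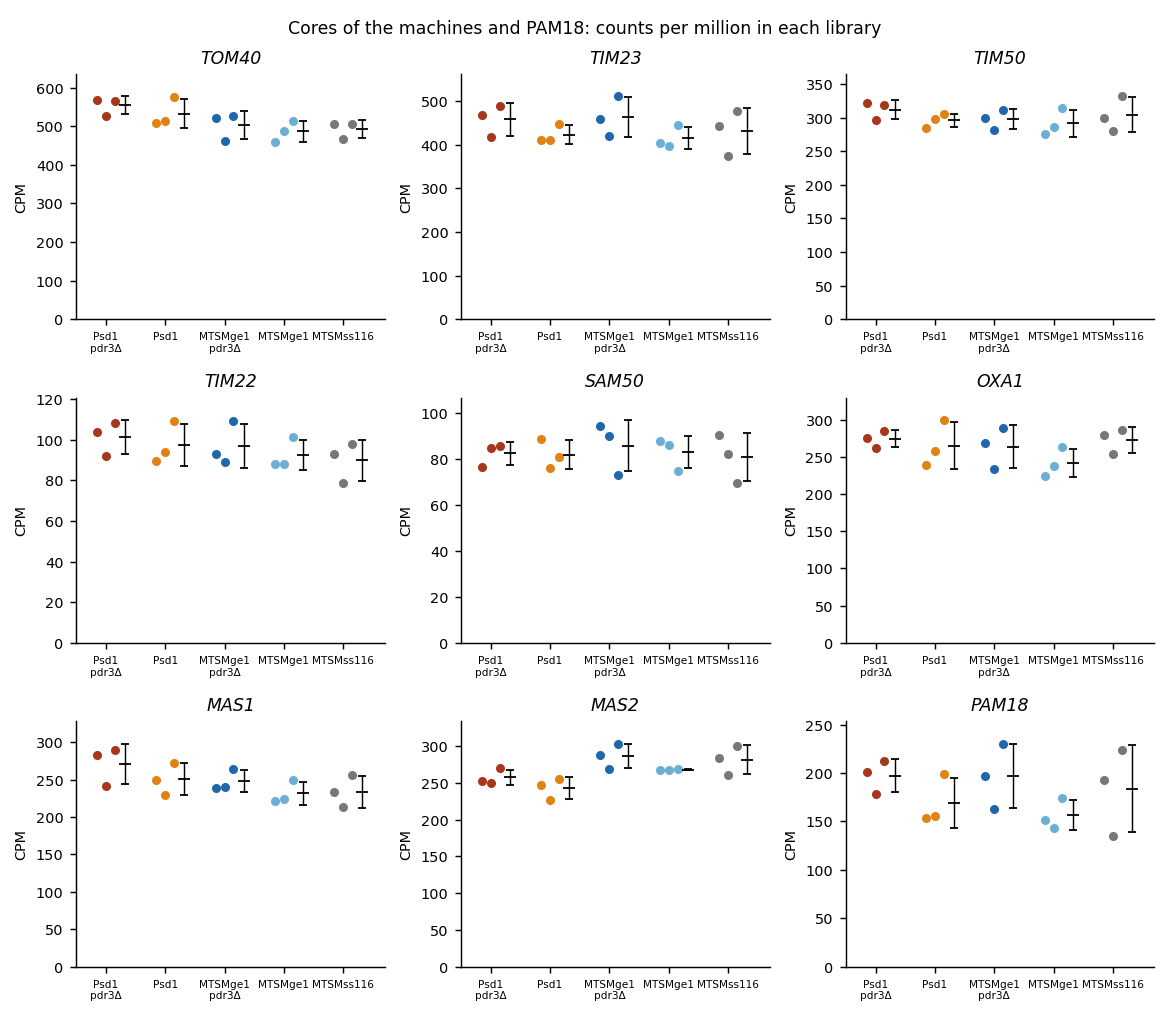
CPM of the core genes of each machine and of PAM18 (y axes, each from 0) in the 15 libraries by group; points are libraries and the black bar is the mean ± SD of 3. For TIM23, TIM50, TIM22, SAM50, OXA1 and MAS1 the Psd1 and MTSMss116 libraries overlap.

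A test for any difference among the 5 groups called 7 of the 38 genes, against 15.1% of the 6251 genes tested. They were TIM8 (adjusted p = 6.16e-05 by edgeR), MIA40 (0.00185), TIM13 (0.00936), MGR2 (0.0104), PAM17 (0.0159), OCT1 (0.0269) and ICP55 (0.0394). TIM8, MIA40, TIM13 and MGR2 were called in all 15 fits that left out 1 library. PAM17 was lost without Psd1 replicate 3 (adjusted p = 0.0628 by edgeR), OCT1 without Psd1 replicate 1 or 2 or MTSMss116 replicate 1 (up to 0.0657), and ICP55 was called in 5 of the 15 (adjusted p up to 0.0888). Of all genes tested, 4.91% had the 6 Psd1-construct libraries above the other 9, as 4 of the 38 did, and 2.48% had them below, as none of the 38 did.

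No import gene was called for the loss of PDR3 by the edgeR tests without a block. Under Psd1, 0 of 38 were called in pdr3Δ over PDR3 cells, against 0.715% of genes tested, DESeq2 called 0 and none had an unadjusted p under 0.05. Under MTSMge1, 0 of 38 were called, against 0.728%, DESeq2 called 0 and 1, TOM5, had an unadjusted p under 0.05. The 95% intervals lay between -0.35 and 0.48 under Psd1 and between -0.48 and 0.66 under MTSMge1. Log2 fold changes were positive for 23 of 38 under Psd1 (48.6% of all genes) and 30 under MTSMge1 (50.5%), which was not tested. TIM8, with 86.7 ± 0.995 CPM in Psd1 pdr3Δ cells and 87.9 ± 3.17 CPM in Psd1 cells (SD, n = 3 each), overlapped between the genotypes, and so did MIA40. TIM22, the gene with a TCCGNGGA match, had 104, 92.1 and 108 CPM in Psd1 pdr3Δ cells, against 89.5, 94.1 and 109 CPM in Psd1 cells. It had 93.0, 88.9 and 109 CPM in MTSMge1 pdr3Δ cells, against 88.0, 88.2 and 101 CPM in MTSMge1 cells, and the genotypes overlapped under both constructs.

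Same-numbered libraries of the 2 genotypes deviated together, so the comparison was also made with the replicate number as a block. Their mean correlations, 0.311 under Psd1 and 0.365 under MTSMge1, were like those of the construct comparisons (0.284 to 0.341). Only the lowest pair set them apart, so the pairing is a choice made from the data. The block fit called 0 of 38 under Psd1 (9.8% of all genes) and 1 under MTSMge1 (5.98%), PAM18, which was 0.32 higher on the log2 scale (adjusted p = 0.0260 by edgeR). PAM18 had 201, 178 and 212 CPM in Psd1 pdr3Δ replicates 1, 2 and 3, against 153, 156 and 198 CPM in the same-numbered Psd1 replicates. It had 197, 163 and 230 CPM in MTSMge1 pdr3Δ replicates, against 152, 143 and 174 CPM in MTSMge1 replicates. Averaged over both constructs, a contrast added after the values were seen, 0 of 38 were called without a block (1.25% of all genes; 3 had an unadjusted p under 0.05) and 6 with it, all higher in pdr3Δ cells, against 23.4% of all genes. These were PAM18 (log2 fold change 0.27), TOM20 (0.21), TOM5 (0.15), TIM10 (0.14), TIM23 (0.13) and PAM16 (0.12).

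**Figure D4:**
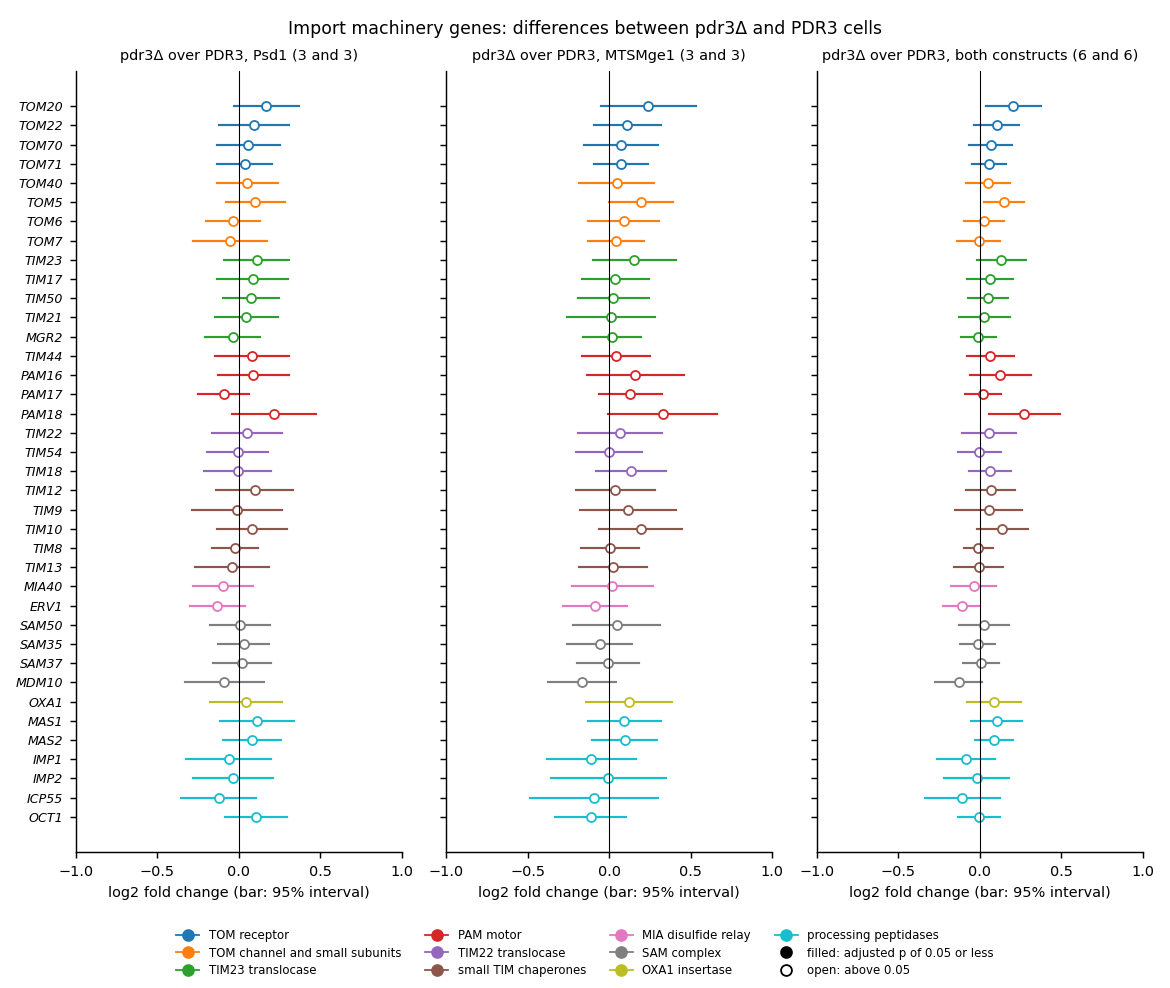
Log2 fold changes of pdr3Δ over PDR3 cells for the 38 import genes (x axes; bars are 95% intervals, without a replicate block), coloured by machine, under Psd1, under MTSMge1 and averaged over both constructs. No point is filled, and in the averaged panel the intervals include 0 for all genes but TOM20, TOM5 and PAM18.

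The effect of PDR3 was not called as different between the constructs for any of the 38 genes (interaction test by edgeR, 0 of 38; 0.016% of all genes; DESeq2 0). One gene, PAM17, had an unadjusted p under 0.05, with an interaction of -0.23 on the log2 scale (95% interval -0.44 to -0.01; adjusted p = 0.9999 by edgeR).

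Per kilobase of RefSeq gene span, which is not the coding length for ERV1 (653 bases), the 38 genes had a wide range of levels. Their order changed little between groups. In MTSMss116 cells TIM10 was the highest with 1448 ± 163 CPM per kilobase and MDM10, a SAM subunit shared with a membrane tether, the lowest with 23.2 ± 4.33 (SD, n = 3). TOM70 had 262 ± 13.1 CPM per kilobase in Psd1 cells and 298 ± 30.2 in MTSMss116 cells, above its paralog TOM71 with 61.7 ± 4.35 and 64.5 ± 1.75 (SD, n = 3 each). TIM8 was 13th of the 38 in Psd1 cells and 18th in MTSMss116 cells, and MIA40 was 6th and 11th. The fold between the highest and the lowest of the 5 group means had a median of 1.17 over the 38, against 1.24 over all genes tested. It was under 1.2 for 23 genes and reached 1.5 for 3, namely ICP55 (1.54), TIM8 (1.53) and MIA40 (1.52).

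**Figure D5:**
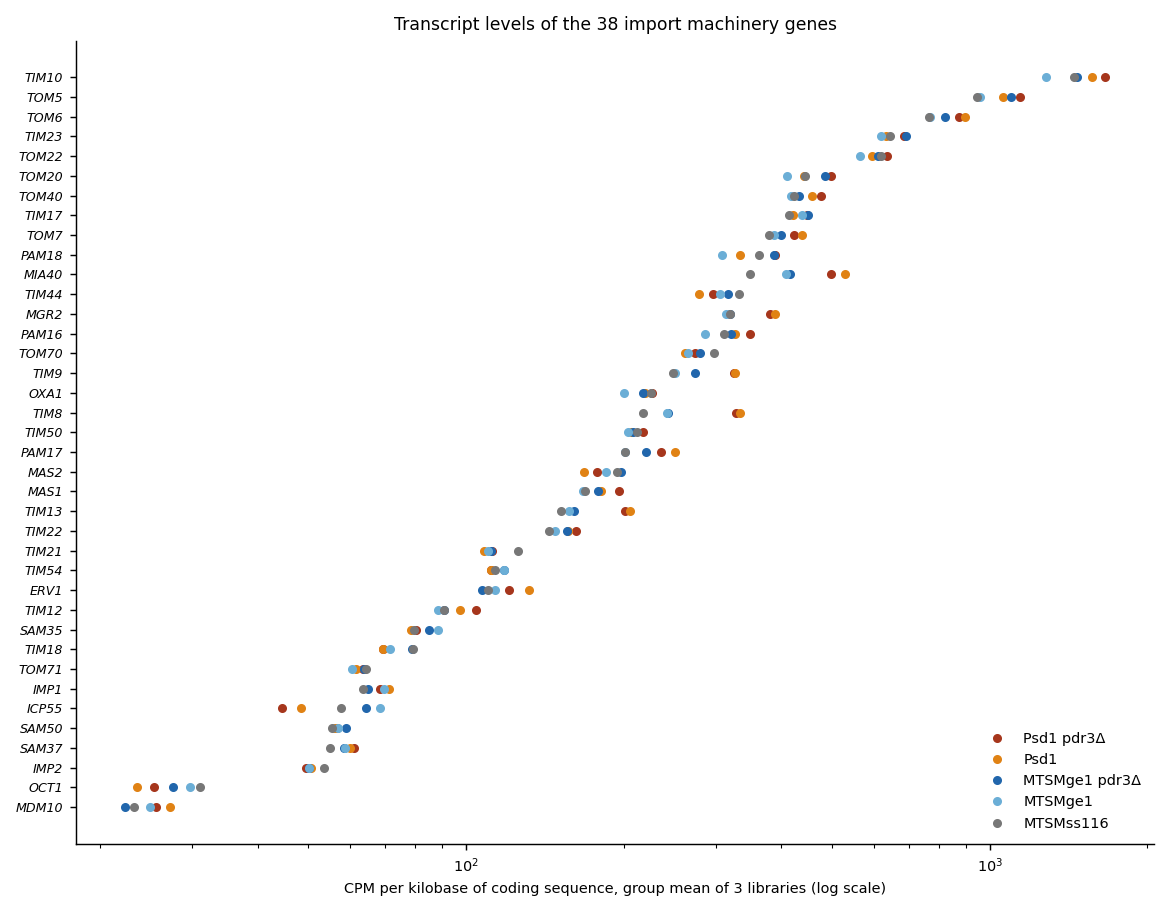
Mean CPM per kilobase of RefSeq gene span, named coding sequence on the axis (x axis, log scale, means of 3 libraries), of the 38 import genes. They are ordered down the page by their level in MTSMss116 cells, with 1 colour per group. The 5 groups lie close together for most genes, and the Psd1 groups stand to the right for TIM8, MIA40 and TIM13.

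The 6 import genes with gene spans of at most 300 bases were all above the median log2 fold change of their length class in Psd1 over MTSMss116 cells, with a median of 0.23, against 0.03 for the 226 genes of that class. So were 4 of 4 import genes of over 300 and up to 450 bases (median 0.21), but 4 of 12 up to 900 bases (-0.0031), 6 of 12 up to 1500 bases (0.01) and 0 of 4 longer ones (-0.20). Fits with an offset for gene length or for GC content, added after the values were seen, called TIM8 and MIA40 again and no other import gene, and the length offset left the median of the 38 at 0.02, against 0.06 without it.

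Of 16 related import genes outside the 38, 2 were called in Psd1 over MTSMss116 cells, both higher, against 6.16% of all genes. They were SSC1 and XDJ1, a J-protein that acts with the TOM complex (log2 fold change 0.40, adjusted p = 0.0460 by edgeR). Of the 16, 15 had positive values, against 51.0% of all genes. The XDJ1 call was lost without any 1 library other than MTSMss116 replicate 2 (adjusted p up to 0.181 by edgeR), without the filter on low counts and with the length or GC offset. The test over 5 groups called 4 of the 16, against 15.1% of all genes. These were SSC1, XDJ1, ZIM17 (a partner of Ssc1) and MIM2 (an outer membrane insertase subunit). SSC1 and XDJ1 were called in all 15 fits that left out 1 library, ZIM17 in 10 (adjusted p up to 0.0873 by edgeR) and MIM2 in 4 (up to 0.127). The MIM2 promoter also holds a TCCGNGGA match. MIM2 had 19.3, 19.9 and 16.8 CPM in MTSMge1 pdr3Δ cells, against 34.6, 26.3 and 31.1 CPM in MTSMge1 cells. It had 21.0, 21.4 and 20.8 CPM in MTSMss116 cells. In Psd1 pdr3Δ cells it had 21.5, 23.7 and 22.1 CPM, against 17.5, 25.7 and 28.1 CPM in Psd1 cells, so the genotypes overlapped. The MTSMge1 libraries stood above those of MTSMge1 pdr3Δ and MTSMss116 cells but overlapped the Psd1 libraries. The log2 fold change of MIM2 in MTSMge1 pdr3Δ over MTSMge1 was -0.72 and did not pass by edgeR (adjusted p = 0.112), while DESeq2 gave an adjusted p of 0.00164. The ZIM17 window also holds a TCCGNGGA match, but within the coding sequence, whereas the TIM22 and MIM2 matches lie before it. With the replicate block ZIM17 was 0.21 higher in pdr3Δ cells under Psd1 and 0.09 higher under MTSMge1 (log2), and neither was called. Without a block, edgeR called 0 of the 16 genes for PDR3, against 0.715% of all genes under Psd1 and 0.728% under MTSMge1. With the replicate block it called MSP1, an outer membrane extractor of stuck proteins, lower under Psd1 (log2 fold change -0.27, adjusted p = 0.0404 by edgeR), against 9.8% of all genes. Under MTSMge1 the block fit called MIM2, lower (adjusted p = 0.0174 by edgeR), against 5.98%. Averaged over constructs it called MSP1 (-0.24) and XDJ1 (0.13), against 23.4%.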

How the data were processed

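The authors aligned stranded 59 bp paired reads with DRAGEN to the R64 build and deposited featureCounts counts per gene, the raw counts used here; the medium follows the labels (the methods describe a synthetic one for such inductions), and the strand setting of the counting is not given in the sources used here. Symbols and positions came from RefSeq R64, which matched 6047 of the 7127 IDs, and no RefSeq gene overlapped an import gene.

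Counts were normalised by TMM and tested with edgeR 4.0.16 (R 4.3.3) by the quasi-likelihood F-test after filterByExpr. Each pairwise fit held only the groups compared, and the interaction held 4 groups. P-values were adjusted by Benjamini-Hochberg over all genes tested, and a gene was called at an adjusted p of 0.05 or less. CPM values use TMM-scaled totals. Alternatives were DESeq2 1.42.0, other size factors, filters and totals, a common fit, a replicate block, offsets and single libraries left out. The scripts were tested on simulated data. For Psd1 over MTSMss116 they recovered 6% of genes changed by 0.5 on the log2 scale and 68% of those changed by 1. Of the 82 calls, 8 were false. Changes of 0.5 were recovered for 10% of genes in the interaction and 31% in the test over 5 groups.

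Named with values in every group or in the groups compared were called genes, up to 6 in each direction, the core genes of each machine (TOM40, TIM23, TIM50, TIM22, SAM50, MIA40, ERV1, OXA1, MAS1, MAS2), and TOM70 and TOM71; TIM9, TIM13, MGR2, PAM17, PAM18, ICP55, OCT1 and MIM2 were given after their values were seen. The genes, lists and comparisons were chosen with earlier results of these data known. Replicates are biological by the series description, and no 2 replicates agreed within counting noise. On a chi-square scale where counting noise alone gives 1, replicate pairs stood at 8.73 to 63.5, apart from those holding MTSMss116 replicate 2. That library stood at 71.1 against replicate 1 of its group and at 125 against replicate 3. Same-numbered pairs of pdr3Δ and PDR3 libraries correlated at 0.147 or above under Psd1 and 0.197 or above under MTSMge1 in their deviations from group means, so the number was taken to pair them there. In the other comparisons at least 1 pair was at 0.1 or below, although their mean correlations were similar.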

Additional observations from a re-analysis of the deposited data

How the results depend on the processing

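The count of import genes called moved with the model, and so did the count over all genes, given here in brackets for most settings. In Psd1 over MTSMss116 cells it was 2 [380], against 6 [930] by DESeq2 and 8 [988] with all 5 groups in one fit. It was 5 [867] with a replicate block and 0 to 7 [50 to 1503] without single libraries. The highest of these, 7 [1503], came without MTSMss116 replicate 2, the library that differed most from the other replicates of its group. The number called in this comparison thus depended strongly on that library. In Psd1 over MTSMge1 cells it was 1 [301], against 7 [645] by DESeq2 and 6 [427] with 5 groups. With the replicate block it was 9 [1153], and without single libraries 0 to 3 [41 to 426]. In Psd1 pdr3Δ over MTSMge1 pdr3Δ cells it was 1 [242], against 2 [587] by DESeq2 and 3 [463] with 5 groups. There it was 4 [949] with the block and 0 to 2 without single libraries. The 5-group test gave 7 [945], against 11 [1587] by DESeq2, 18 [2211] with the block and 5 to 8 without single libraries. The averaged construct contrast gave 10 [1359], against 16 [2211] with the block and 7 to 10 [998 to 1385] without single libraries. The averaged genotype contrast gave 0 [78], against 6 [1461] with the block and 0 [59 to 223] without any single library. Under MTSMge1 the PDR3 comparison gave 0 [45], and 1 [370] with the replicate block. MTSMge1 over MTSMss116, the PDR3 comparison under Psd1 and the interaction stayed at 0 in every setting run. The log2 fold changes of TIM8 and MIA40 in Psd1 over MTSMss116 stayed positive in every setting. The replicate numbers did not meet the rule for pairing in the construct comparisons. With 3 libraries per group, the median SE of the 38 log2 fold changes of Psd1 over MTSMss116 was 0.11, which limited what could be called.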
